A study of Mus musculus with 8 samples.

Results

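The 10 Notch genes described here were 4 receptors (*Notch1*, *Notch2*, *Notch3* and *Notch4*), 3 ligands (*Dll4*, *Jag1* and *Jag2*) and 3 target genes (*Hes1*, *Hey1* and *Heyl*). They were taken by gene symbol, with no threshold on their values, from a table of 55401 genes measured by bulk RNA-seq in whole tibialis anterior (TA) muscle, a fast muscle of the lower leg. The samples were 4 wild type (WT) muscles of the C57/Bl6 strain and 4 mdx5cv muscles, all from male mice at 6 months of age. mdx5cv mice, a model of Duchenne muscular dystrophy (DMD) on the B6 background, carry a point mutation in the dystrophin gene *Dmd* in every cell, so their muscle lacks normal dystrophin throughout life. The labels number the muscles of each group without naming the animals. P-values therefore measure the spread between these 8 samples.

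Notch is a receptor for signals between touching cells. A ligand on one cell binds a Notch receptor on its neighbor, ADAM proteases and then gamma-secretase cut the receptor, and the freed intracellular domain joins RBPJ and Mastermind-like proteins in the nucleus to switch on repressors of the HES and HEY families. In muscle the pathway is known for keeping satellite cells, the stem cells of the fiber, quiescent and for opposing their differentiation, and in vessels it is known for arterial identity and for the smooth muscle and pericyte coat.

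Recovered reads ranged from 13862559 to 14921057 per WT muscle and from 13175524 to 14502624 per mdx5cv muscle. *Dmd* itself fell from 6954 ± 857 normalized counts in WT muscle to 3964 ± 388 in mdx5cv muscle (SD, n = 4 per group, log2 fold change -0.81, SE 0.12, adjusted p = 0.000177). A normalized count is the read count of a gene divided by a size factor for its library, and a log2 fold change is the difference of group means of log2(normalized count + 1), mdx5cv minus WT. An adjusted p is a limma p-value corrected by the Benjamini-Hochberg method for the 13677 genes tested, which are those averaging 10 or more normalized counts, and a gene is said to rise or fall where it is under 0.05. Skeletal muscle fiber markers, from *Myh4* at a mean of 436417 normalized counts down to *Pvalb* at 45463, were abundant in all 8 libraries.

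*Notch2* was the 1 gene of the 10 that rose, by a log2 fold change of 1.01, and none of the 10 fell. All 10 were tested, and the other 9 had log2 fold changes from -0.42 (*Hes1*) to 0.30 (*Heyl*). The median of the 10 was -0.02, beside 0.0035 for all genes tested. Among all genes tested, 20.9% rose and 20.1% fell, so the 1 riser of 10 was no larger a share than in the table as a whole. With a log2 fold change of at least 1 as a further condition, 1 of the 10 genes passed upward and 0 downward, against 10.3% and 3.27% of all genes. *Notch2* was also the 1 member whose WT and mdx5cv values did not overlap, a state found for 20.3% of all genes with mdx5cv higher and 19.8% with mdx5cv lower.

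**Figure D1:**
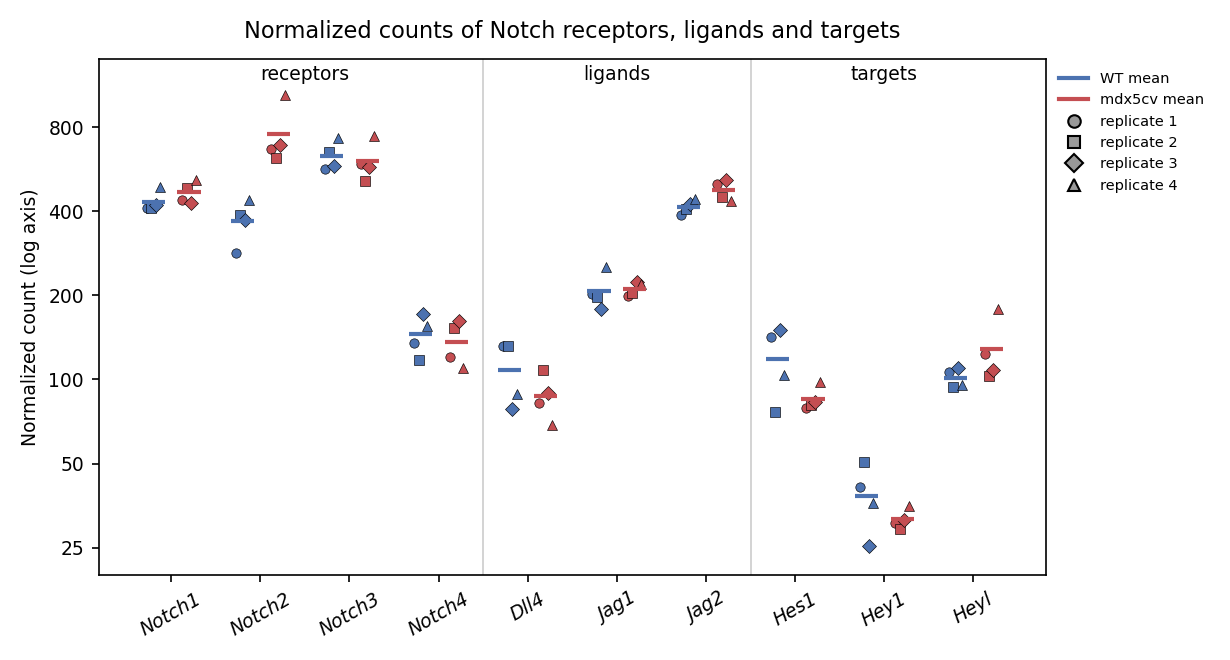
Normalized count (log axis) of each of the 10 Notch genes in every muscle, WT in blue and mdx5cv in red, with a marker shape for each replicate number and a bar for each group mean (n = 4). The *Notch2* values of the mdx5cv muscles, 619 to 1045, all lie above those of the WT muscles, 284 to 437, and the groups overlap for the other 9 genes.

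*Notch2* (ENSMUSG00000027878, mm10 chromosome 3, 98013527 to 98150361, plus strand, protein coding) encodes a receptor found in satellite cells, macrophages and other cells of muscle. Its normalized counts were 284, 386, 373 and 437 in WT muscles 1 to 4 and 669, 619, 689.8 and 1045 in mdx5cv muscles 1 to 4. Every mdx5cv muscle was above every WT muscle, with WT muscle 1 the lowest and mdx5cv muscle 4 the highest. The mean rose from 370.1 ± 63.7 to 756 ± 195 (SD, n = 4 per group), a ratio of 2.04, with a log2 fold change of 1.01 (SE 0.17, 95% interval 0.65 to 1.38, adjusted p = 0.000437). These values rest on 248 to 413 reads in WT and 656 to 1308 reads in mdx5cv libraries. *Notch2* passed the test in all 19 alternatives to the processing, with an adjusted p from 8.32e-07 to 0.0043. Its log2 fold change was 0.85 without mdx5cv muscle 4 and 1.37 when libraries were scaled to equal totals, so the fold threshold of 1, which it passed narrowly, was missed in 5 of the 19. An exon of the gene model Gm42820 shares 541 bases with *Notch2* on the same strand, and that model held 2 to 21 reads per library.

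*Notch1* (ENSMUSG00000026923, chromosome 2, 26457903 to 26516663, minus strand) is the receptor most studied in satellite cells and in endothelium. Its normalized counts were 410.3, 409, 421 and 489 in WT and 439, 484, 429.5 and 517 in mdx5cv muscle. The groups overlapped, and in each the fourth muscle was the highest. The log2 fold change was 0.11 (SE 0.11, 95% interval -0.12 to 0.34, adjusted p = 0.429), an interval that reaches to 0.921-fold on the low side and 1.27-fold on the high side. With libraries scaled to equal totals, where 39.8% of all genes rose, *Notch1* passed the test, at 0.47 (adjusted p = 0.0169).

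*Notch3* (ENSMUSG00000038146, chromosome 17, 32120820 to 32166852, minus strand) is the receptor of vascular smooth muscle and pericytes, together called mural cells. It had 564, 652, 580.5 and 729 normalized counts in WT and 590.1, 512, 576 and 743 in mdx5cv muscle, so both the lowest and the highest value belonged to mdx5cv muscles. The log2 fold change was -0.07 (SE 0.13, 95% interval -0.34 to 0.21, adjusted p = 0.712). *Notch4* (ENSMUSG00000015468, chromosome 17, 34564268 to 34588503, plus strand) is largely an endothelial receptor. Its values of 135, 117, 171 and 156 in WT and 120.4, 153, 162 and 110.3 in mdx5cv muscle overlapped, with a log2 fold change of -0.09 (SE 0.16, 95% interval -0.44 to 0.26, adjusted p = 0.687). For both genes the sign of these small differences turned positive with libraries scaled to equal totals, at 0.29 for *Notch3* and 0.27 for *Notch4*, neither past the threshold.

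The 3 ligands showed no difference past the threshold. *Dll4* (ENSMUSG00000027314, chromosome 2, 119325784 to 119335962, plus strand), the Delta-like ligand of arteries and sprouting capillaries, had 132, 132, 78.5 and 89.0 normalized counts in WT and 82.5, 108, 89.1 and 68.7 in mdx5cv muscle. WT muscles 1 and 2 were above all mdx5cv muscles and WT muscles 3 and 4 fell among them (log2 fold change -0.28, SE 0.20, 95% interval -0.71 to 0.15, adjusted p = 0.278). *Jag1* (ENSMUSG00000027276, chromosome 2, 137081456 to 137116644, minus strand), a Jagged ligand of vessels and many other tissues, had 203, 197, 178 and 252 normalized counts in WT and 198, 204, 222 and 219 in mdx5cv muscle. The mdx5cv values of *Jag1* lay within the WT range (log2 fold change 0.03, SE 0.13, 95% interval -0.24 to 0.30, adjusted p = 0.859). *Jag2* (ENSMUSG00000002799, chromosome 12, 112907819 to 112929776, minus strand), the other Jagged ligand, had 387, 406, 426 and 441 normalized counts in WT and 498, 450.0, 518 and 436 in mdx5cv muscle. All but mdx5cv muscle 4 were above every WT value, and the log2 fold change of 0.19 (SE 0.10, 95% interval -0.02 to 0.41, adjusted p = 0.144) did not pass the test. It did pass with libraries scaled to equal totals, at 0.55 (adjusted p = 0.00314), a scaling at which 39.8% of all genes rose and the median of all genes was 0.36.

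The 3 target genes encode the basic helix-loop-helix repressors that read out the pathway in many tissues. *Hes1* (ENSMUSG00000022528, chromosome 16, 30064384 to 30067796, plus strand) is also induced by other signals. Its normalized counts were 142, 76.8, 150.4 and 104 in WT and 78.7, 81.1, 82.8 and 98.3 in mdx5cv muscle. WT muscles 1, 3 and 4 were above all mdx5cv muscles and WT muscle 2 was below them all, so the WT spread (118 ± 34.3, SD, n = 4) was wider than that of mdx5cv (85.3 ± 8.85). The log2 fold change of *Hes1* was -0.42 (SE 0.20, 95% interval -0.85 to 0.00, adjusted p = 0.104). Without WT muscle 2 *Hes1* passed the test as lower, at -0.61 (adjusted p = 0.0109), and it passed also when each library was centered on its median gene, at -0.52 (adjusted p = 0.047). With libraries scaled to equal totals it was -0.07 (adjusted p = 0.813).

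*Hey1* (ENSMUSG00000040289, chromosome 3, 8663359 to 8667256, minus strand) and *Heyl* (ENSMUSG00000032744, chromosome 4, 123233556 to 123249875, plus strand) are expressed in quiescent satellite cells and in vessels. *Hey1* was the least abundant of the 10, at 41.3, 50.5, 25.4 and 36.0 normalized counts in WT and 30.6, 29.2, 31.5 and 35.2 in mdx5cv muscle. The mdx5cv values of *Hey1* again lay inside the WT range, and it had 23 to 46 reads per library (log2 fold change -0.23, SE 0.22, 95% interval -0.71 to 0.25, adjusted p = 0.436), with a sign that turned at equal totals (0.12). *Heyl* had 107, 94.3, 109 and 95.3 normalized counts in WT and 123, 103, 108 and 179 in mdx5cv muscle. mdx5cv muscle 4 stood above the other 7 muscles, and the log2 fold change of 0.30 (SE 0.17, 95% interval -0.07 to 0.67, adjusted p = 0.176) was 0.13 without it. At equal totals *Heyl* passed the test, at 0.66 (adjusted p = 0.0224).

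**Figure D2:**
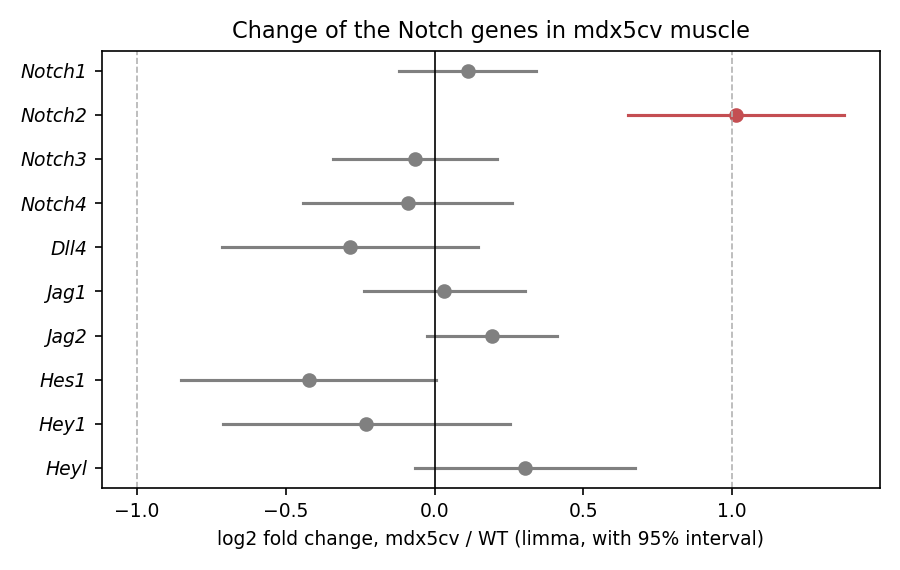
Log2 fold change between mdx5cv and WT muscle (x axis, limma) of the 10 Notch genes, with points for estimates, bars for 95% intervals (n = 4 per group), red for an adjusted p under 0.05 and dashed lines at -1 and 1. The interval of *Notch2*, 0.65 to 1.38, lies above 0, and those of the other 9 genes include or touch 0.

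Levels of the 10 genes were compared with each other after division by the length of the union of their exons, in normalized counts per kb. In WT muscle *Notch3* came first by this length, at 78.0 ± 9.32 per kb (SD, n = 4), followed by *Jag2* at 59.6, *Hes1* at 58.1, *Jag1* at 35.6, *Notch2* at 34.3, *Notch1* at 30.4, *Dll4* at 28.0, *Heyl* at 19.8, *Notch4* at 18.0 and *Hey1* at 11.7. Between *Notch3* and *Jag2* the 4 WT values did not overlap, and every other pair of neighbors in this order did. In mdx5cv muscle *Notch3* was at 74.9 ± 12.1 per kb and *Notch2* had moved up to 70.1 ± 18.1, next to *Jag2* at 68.3. These 3 levels overlapped, and after them came *Hes1* at 41.9, *Jag1* at 36.2, *Notch1* at 32.8, *Heyl* at 25.1, *Dll4* at 22.6, *Notch4* at 16.9 and *Hey1* at 9.69. The steps from *Jag2* to *Hes1*, from *Hes1* to *Jag1* and from *Notch4* to *Hey1* held no overlap. The order depends on the gene models. By the length of the longest transcript *Jag2* (81.3 per kb) and *Hes1* (80.6) were above *Notch3* (78.7) in WT muscle, *Jag2* (93.1) was above *Notch3* (75.5) in mdx5cv muscle, and *Notch1*, with 14232 bases of exons in all but 9488 in its longest transcript, was at 45.6 in WT muscle, above *Notch2* at 35.2.

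The makeup of the receptor pool was expressed as each receptor's percent of the summed per-kb level of the 4 receptors, a measure that does not depend on the size factors. The *Notch2* share was 18.6%, 22.4%, 22.0% and 22.0% in WT muscles 1 to 4 and 34.3%, 33.0%, 34.5% and 40.6% in mdx5cv muscles 1 to 4. The *Notch3* share was 49.2%, 50.4%, 45.7% and 48.9% in WT and 40.4%, 36.5%, 38.4% and 38.5% in mdx5cv muscle. For both receptors the groups did not overlap, with *Notch2* at 21.3% ± 1.78 against 35.6% ± 3.38 and *Notch3* at 48.5% ± 2.04 against 38.4% ± 1.59 (SD, n = 4 per group). In a two-sided exact permutation test over the 70 arrangements of the 8 muscles each had p = 0.0286, the smallest p these groups allow, and p = 0.0571 after Benjamini-Hochberg adjustment over the 4 receptors, so neither passed. The *Notch1* share of 19.0% ± 0.992 against 17.0% ± 1.86 (n = 4 per group, exact permutation p = 0.114, adjusted 0.152) and the *Notch4* share of 11.2% ± 1.89 against 8.94% ± 2.47 (n = 4 per group, exact permutation p = 0.2, adjusted 0.2) overlapped. The shares add to 100%, so a higher share of *Notch2* requires a lower sum of the other 3.

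**Figure D3:**
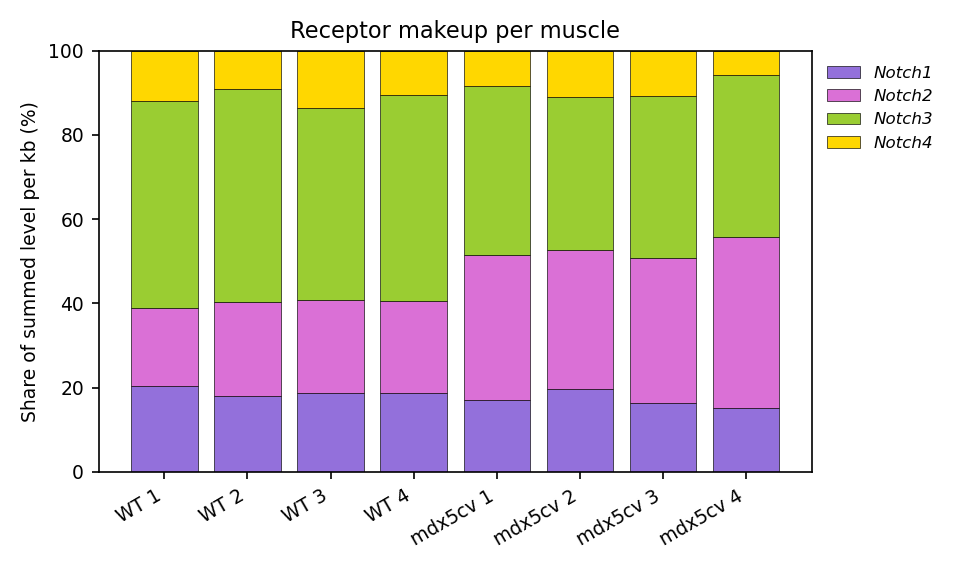
Stacked bars of the percent of the summed receptor level per kb (y axis) taken by *Notch1*, *Notch2*, *Notch3* and *Notch4* in each of the 8 muscles. The *Notch2* segment spans 18.6% to 22.4% of the bar in WT and 33.0% to 40.6% in mdx5cv muscles, and the *Notch3* segment 45.7% to 50.4% and 36.5% to 40.4%.

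The other genes of the pathway were taken from a list of 57, of which 46 were abundant enough to test. Of these, 18 rose and 7 fell, where 20.9% and 20.1% of all genes did. By a log2 fold change of at least 1 or at most -1, 5 of the 46 rose and 0 fell, against 10.3% and 3.27% of all genes. The 5 were thus close to the share in the table as a whole. The median log2 fold change of the 46 was 0.16. Without mdx5cv muscle 4 the counts were 14 and 4, where 17.7% and 16.8% of all genes rose and fell. Scaling to equal totals gave 27 and 1 (*Nrarp*), beside 5444 and 820 of all genes at that scaling and 2854 and 2743 at the deposited one. The 25 called genes kept their sign in all 19 alternatives, 15 of them were called in every one, and 10 lost the call in at least 1.

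Among the ligands outside the 10, *Dll1*, a Delta-like ligand that activated myoblasts carry, was the 1 tested of 5. It had 52.7, 41.7, 58.6 and 75.2 normalized counts in WT and 105, 73.6, 92.7 and 129 in mdx5cv muscle, where mdx5cv muscle 2 was just below WT muscle 4. *Dll1* rose (log2 fold change 0.80, SE 0.21, adjusted p = 0.0081). The 4 not tested, *Dll3*, *Dlk1*, *Dlk2* and *Dner*, had at most 7 reads in any library. Of the 6 ubiquitin ligases of ligand endocytosis 1 rose and 2 fell, where 20.9% and 20.1% of all genes did. *Neurl3*, a Neuralized-family ligase known as an inflammation-inducible gene of the lung, went from 10.3, 15.4, 12.2 and 13.8 normalized counts in WT to 61.1, 51.9, 53.1 and 95.9 in mdx5cv muscle (log2 fold change 2.23, SE 0.24, adjusted p = 1.83e-05). *Mib1*, the ligase that ligands chiefly need for signaling, fell by 0.51 on the log2 scale (adjusted p = 0.0197) and *Neurl2*, also known in muscle for its part in myofibril turnover, by 0.43 (adjusted p = 0.0205). Neither was called at equal totals, where *Mib1* was -0.15 and *Neurl2* -0.07, or without mdx5cv muscle 4, at -0.44 (adjusted p = 0.0516) and -0.34 (adjusted p = 0.0533). *Mib1* was also lost without WT muscle 1 or mdx5cv muscle 2, and both were named after their values were seen.

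Of the 9 cleavage genes 5 rose and 1 fell, where 20.9% and 20.1% of all genes did, and no difference between groups of pathway genes was tested. *Adam17*, a surface protease that can cut Notch receptors, had the smallest adjusted p of them. It had 259, 251, 251 and 254 normalized counts in WT and 357, 339.6, 315 and 418 in mdx5cv muscle, with no overlap (log2 fold change 0.48, SE 0.11, adjusted p = 0.00368). The others, of which all but *Aph1c* were named after their values were seen, were *Adam10*, the main protease of the ligand-dependent cut (0.76, adjusted p = 0.00767), *Furin*, which cuts the receptor on its way to the surface (0.56, adjusted p = 0.0125), and the gamma-secretase subunits *Ncstn* (0.32, adjusted p = 0.0355) and *Aph1c* (1.10, adjusted p = 0.0126). *Ncstn* was called in 10 of 19 alternatives, with its call lost without WT muscle 1, 2 or 3 or mdx5cv muscle 1, 3 or 4. *Aph1b*, the gene that fell, was called in 9, with its call lost without WT muscle 1, 2 or 3 or mdx5cv muscle 1 or 2. *Aph1c* rose from 21.3 ± 6.69 to 48.1 ± 19.0 normalized counts while its neighbor and close paralog *Aph1b* fell from 74.7 ± 12.0 to 51.9 ± 10.7 (SD, n = 4 per group, log2 fold change -0.53, adjusted p = 0.0416), and reads of such copies can be split between them. Their sum, taken after these values were seen, was 96.0 ± 13.9 in WT and 100.01 ± 20.4 in mdx5cv muscle. Of the 5 receptor glycosylation genes 1 rose and 0 fell, close to the 20.9% of all genes that rose. The riser was the Fringe gene *Lfng*, from 41.1 ± 8.32 to 66.2 ± 16.1 (log2 fold change 0.67, SE 0.21, adjusted p = 0.0211). Without mdx5cv muscle 4 (0.51, adjusted p = 0.065) or WT muscle 2 it was not called.

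Of the 8 tested genes of receptor trafficking and turnover 3 rose and 0 fell, where 20.9% and 20.1% of all genes did. *Dtx4*, a Deltex ubiquitin ligase that acts on Notch receptors, had 50.4, 68.0, 55.3 and 66.7 normalized counts in WT and 175, 156, 140.5 and 294 in mdx5cv muscle (log2 fold change 1.6, SE 0.21, adjusted p = 7.41e-05). *Numbl*, a relative of the Notch inhibitor Numb, had 40.1, 49.4, 49.8 and 61.4 in WT and 117, 101, 102 and 128 in mdx5cv muscle (log2 fold change 1.15, SE 0.16, adjusted p = 0.000143). In both the groups stood apart, and *Numb* itself was not called (log2 fold change -0.23, adjusted p = 0.131). *Dtx3l*, a Deltex gene known for DNA damage and interferon responses, rose by 0.54 (adjusted p = 0.00893). *Dtx3l* and *Numb* were named after their values were seen.

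In the nuclear complex 4 of 8 genes were higher and 2 lower, where 20.9% and 20.1% of all genes were. *Maml3*, a Mastermind-like coactivator, rose from 80.2, 82.3, 111 and 96.4 normalized counts in WT to 201, 148, 164 and 217 in mdx5cv muscle (log2 fold change 0.97, SE 0.16, adjusted p = 0.000376). *Rbpj*, the DNA-binding partner of all 4 receptors, was named after its values were seen and had 327, 292, 279 and 316 in WT and 448, 448, 446 and 569.8 in mdx5cv muscle (log2 fold change 0.65, SE 0.11, adjusted p = 0.000615). Neither gene had any overlap between groups. *Maml1* (0.47, adjusted p = 0.0198) and the acetyltransferase *Kat2a* (0.43, adjusted p = 0.0296) also rose, while its relative *Kat2b* (-0.51, adjusted p = 0.00497) and the splicing cofactor *Snw1* (-0.38, adjusted p = 0.0352) fell, and these 4 too were named after their values were seen. Without mdx5cv muscle 4 the complex had 2 genes higher and 1 lower, where 17.7% and 16.8% of all genes were. *Maml1* (0.39, adjusted p = 0.0569), *Kat2a* (0.35, adjusted p = 0.0828) and *Snw1* (-0.28, adjusted p = 0.0952) were then no longer called. *Maml1* was also lost without WT muscle 1, *Kat2a* without WT muscle 1 or 3 or mdx5cv muscle 3, and *Snw1* without WT muscle 2 or 3 or mdx5cv muscle 1.

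Corepressors, which occupy RBPJ or HES proteins to silence targets, included 2 risers and 1 faller of 7. Of all genes 20.9% rose and 20.1% fell. *Tle3*, a Groucho-family corepressor, had 121, 149, 153 and 156 normalized counts in WT and 309, 256, 295 and 358 in mdx5cv muscle (log2 fold change 1.06, SE 0.13, adjusted p = 4.97e-05). *Spen* (0.66, adjusted p = 0.00472) rose and the Groucho relative *Tle1* fell (-0.38, adjusted p = 0.0152, not called without WT muscle 3), both named after their values were seen.

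Of 8 further genes, which are targets or relatives of the HES and HEY genes, 2 passed the filter for limma, and they went opposite ways. Whether each of the 8 answers to Notch in this muscle was not tested. *Nrarp*, a target that feeds back to limit Notch signaling, had 89.4, 57.0, 71.9 and 73.1 normalized counts in WT and 48.2, 35.8, 34.2 and 29.6 in mdx5cv muscle. Every mdx5cv value was below every WT value, and *Nrarp* fell (log2 fold change -0.97, SE 0.20, 95% interval -1.39 to -0.54, adjusted p = 0.00186), as it did in all 19 alternatives, with -0.61 (adjusted p = 0.0294) at equal totals. *Hes6*, which unlike its relatives counteracts HES1 and favors myogenic differentiation, rose from 42.1 ± 7.36 to 84.0 ± 30.4 (SD, n = 4 per group, log2 fold change 0.92, SE 0.25, adjusted p = 0.00914) and was named after its values were seen. Of the 6 below the filter, *Helt*, a relative of the HES and HEY genes, had 12, 7, 6 and 4 reads in WT and 0, 2, 0 and 0 in mdx5cv muscle, with no overlap, and DESeq2 on the recovered reads called it lower (adjusted p = 0.00333). *Hey2* had 2 to 8 reads per library and was not called by DESeq2 (adjusted p = 0.941), and *Hes2*, *Hes3*, *Hes5* and *Hes7* had at most 1. *Helt* and *Hey2* were named after their values were seen.

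**Figure D4:**
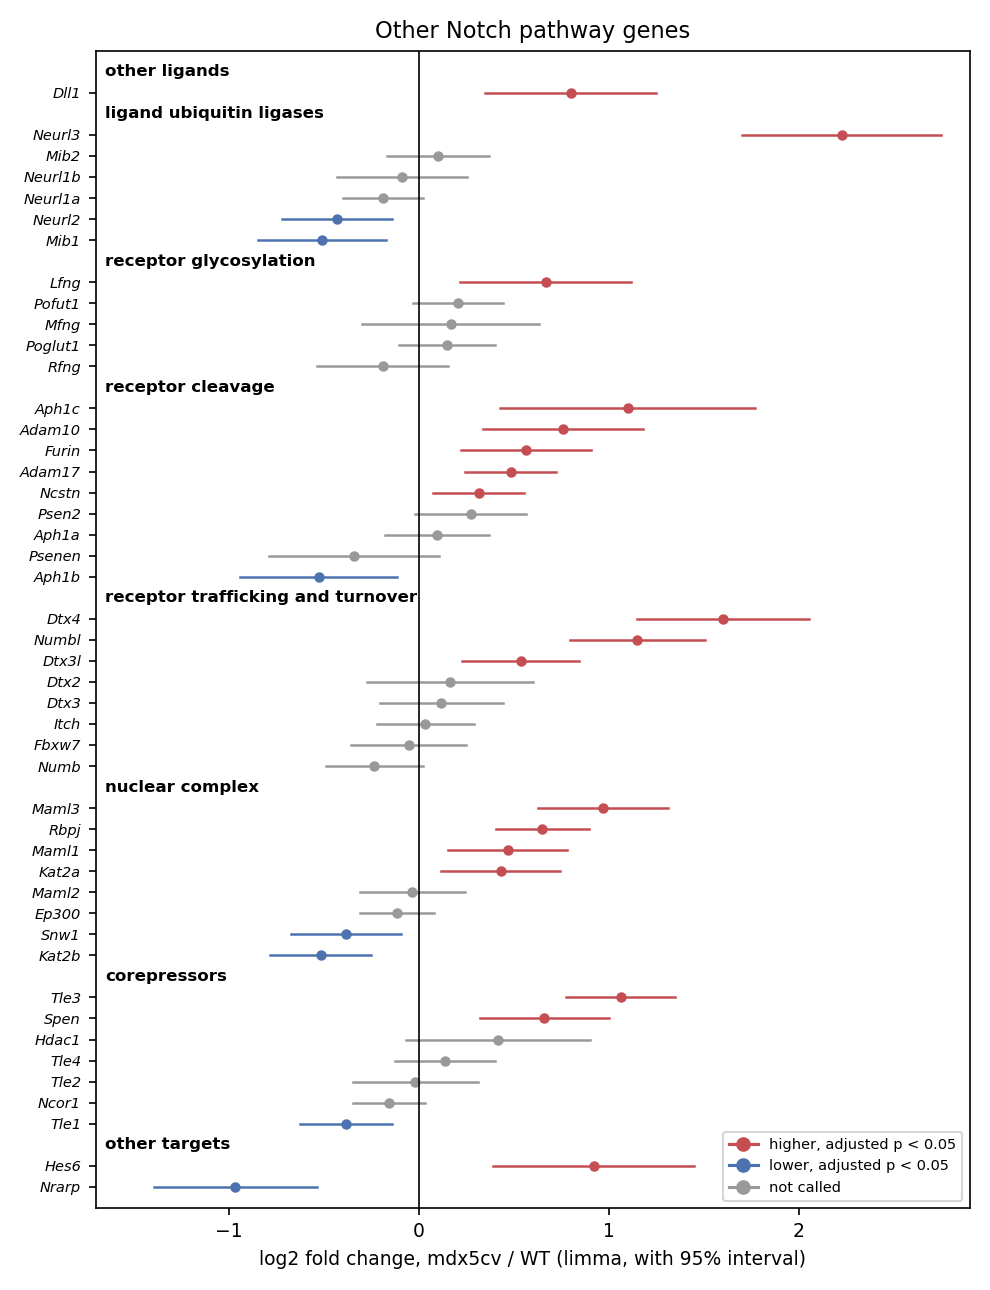
Log2 fold change between mdx5cv and WT muscle (x axis, limma, bars for 95% intervals, n = 4 per group) of the 46 tested genes of the Notch pathway outside the 10, grouped by role, with red for higher and blue for lower at an adjusted p under 0.05. *Neurl3* lies farthest to the right at 2.23 and *Nrarp* farthest to the left at -0.97.

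Markers of the cells that carry Notch genes moved with the groups. In whole muscle, fewer cells of a type and less RNA per cell cannot be told apart. The endothelial list had 9 of 10 genes lower and 0 higher, where 20.1% and 20.9% of all genes were. Its summed level was 3806 to 4492 normalized counts in WT and 2256 to 2861 in mdx5cv muscle. At equal totals 4 of the 10 were lower and 0 higher, where 6.0% and 39.8% of all genes were. The mural list had 5 of 8 genes lower and 3 higher (*Acta2*, *Cspg4* and *Pdgfrb*), beside 20.1% and 20.9% of all genes. Its sums were 11127 to 12127 and 8392 to 9326. Most of these sums came from *Rgs5* (mean of 4696 in WT muscle) and *Abcc9* (4719.7). *Abcc9* fell by less than *Rgs5* (log2 fold change -0.31 against -0.87). Whether the *Abcc9* reads came from mural cells was not tested, so the mural sum may hold reads of other cells. Of the 4 arterial markers tested 1 fell, with sums of 211 to 279 and 188 to 218. That count is near the share of all genes that fell, 20.1%.

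Against these lists, Notch genes of vessels were compared as the log2 ratio of the gene to the summed list, again independent of the size factors. *Notch4* over the endothelial list was -5.05, -5.02, -4.49 and -4.79 in WT and -4.23, -4.12, -4.14 and -4.40 in mdx5cv muscle, with no overlap and a difference of 0.62. *Heyl* over the mural list was -6.82, -7.01, -6.67 and -6.88 in WT and -6.16, -6.36, -6.43 and -5.55 in mdx5cv muscle, also with no overlap and a difference of 0.72. Each had a two-sided exact permutation p = 0.0286, or 0.0571 adjusted over the 4 ratios (n = 4 per group), which did not pass. *Dll4* over the endothelial list (difference 0.42, exact permutation p = 0.114, adjusted 0.114, n = 4 per group) and *Notch3* over the mural list (0.35, exact permutation p = 0.0857, adjusted 0.114, n = 4 per group) overlapped between the groups. The summed lists were lower in mdx5cv muscle, though 3 of the mural markers rose, and whether the gene and the markers sit in the same cells was not tested. Taken alone, *Notch4* (log2 fold change -0.09) and *Heyl* (0.30) were not called. Each ratio thus also carries the fall of its list and is no separate test of the Notch gene.

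**Figure D5:**
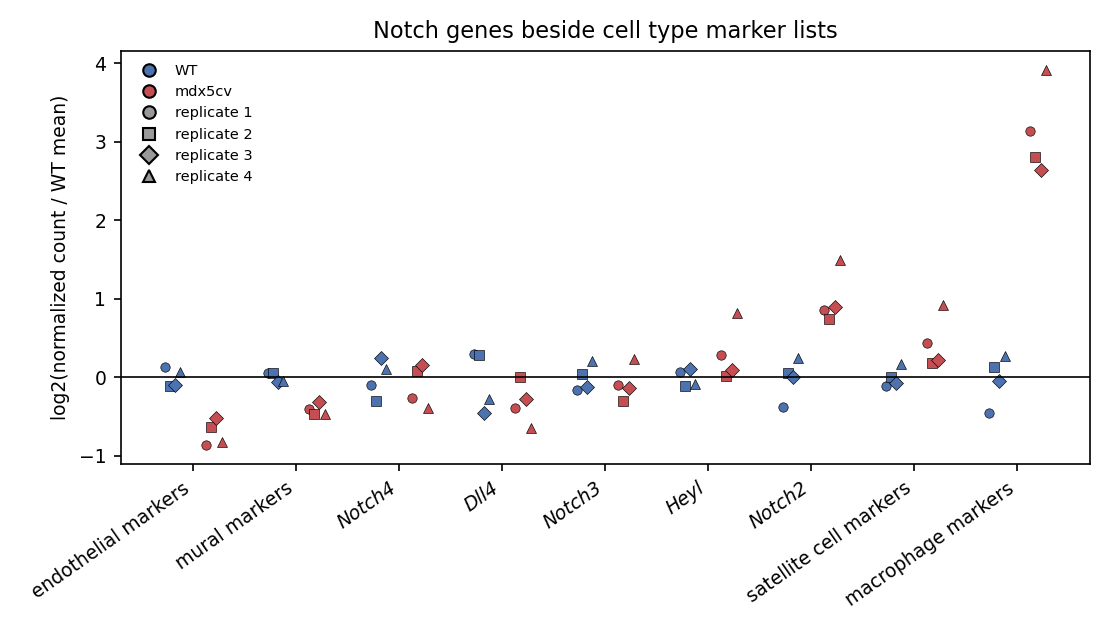
Log2 of the normalized count over the WT mean (y axis) for 5 Notch genes and 4 summed marker lists in each muscle, WT in blue and mdx5cv in red, with a shape for each replicate number. The mdx5cv points of the endothelial and mural lists lie below all WT points. Those of *Notch2* and of the satellite cell and macrophage lists lie above all WT points. For *Notch2*, *Notch3*, *Heyl* and the satellite cell and macrophage lists mdx5cv muscle 4 (triangle) is the highest.

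*Notch2* rose in the same muscles as several other lists. Beside the counts that follow, 20.9% of all genes rose and 20.1% fell. The macrophage list had 5 of 6 genes higher and 1 lower (*Cd163*), with sums of 383 to 638 normalized counts in WT and 3278 to 7963 in mdx5cv muscle. The fibro-adipogenic progenitor list, for the connective tissue cells of muscle, had 4 of 6 genes higher and sums of 5396 to 8126 and 17707 to 31579. The rise of this sum came chiefly from the collagen genes *Col1a1* (mean of 780 in WT and 6996 in mdx5cv muscle) and *Col3a1* (1485 and 12659). *Pdgfra* and *Lum* also rose, while *Dcn* (log2 fold change -0.24, adjusted p = 0.425) and *Ly6a* (-0.30, adjusted p = 0.244) were not called. All 6 regenerating fiber genes rose, with sums of 244 to 366 and 2494 to 9043. Of the 5 satellite cell genes tested 2 rose (*Pax7* and *Msc*), with sums of 284 to 343 and 349 to 581. mdx5cv muscle 4, which had the highest *Notch2*, had the highest sum of each of these 4 lists and the lowest muscle fiber sum (643113, where mdx5cv muscles 1 to 3 had 929799 to 980798). This was not particular to *Notch2*, as the same muscle was the highest of the 8 for *Notch1* (517), *Notch3* (743) and *Heyl* (179) too. The 4 T cell genes were below the filter for limma, at sums of 2.29 to 3.32 and 17.6 to 42.4. DESeq2 on the recovered reads called 3 of the 4 higher, where it called 16.5% of all genes higher. Of the muscle fiber genes 3 of 6 fell, of the Schwann cell genes 2 of 3, and of the adipocyte genes 2 of 4. In these lists 0 genes rose. At equal totals 1 gene fell and 0 rose in each of them, where 6.0% and 39.8% of all genes did. At that scaling 4 of the 5 satellite cell genes rose. The part of these cell types in the *Notch2* difference was not tested.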

How the data were processed

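Bulk RNA-seq of 4 WT and 4 mdx5cv TA muscles was analyzed, and groups were taken from the labels. The authors deposited a signal per gene, which is the read count divided by a size factor per library. Per the labels, RNA was isolated with Trizol, libraries were TruSeq stranded total RNA, and the submitters' processing notes name Trim Galore 0.6.4, STAR 2.6.0c, SAMtools 1.9, featureCounts, DESeq2 1.26.0 and the mm10 genome. The annotation and the strand setting of the counting are not given in the sources used here, so reads of antisense models that overlap *Notch1*, *Notch3* and *Dll4* (at most 12 per library) may not be separated. Whole reads were recovered from 100% of values (tolerance 0.01), at 13175524 to 14921057 per library. No library was a copy of another (chi-square per degree of freedom 8.59 to 38.4 between replicates). Coordinates and exon lengths are from GENCODE M21, in which 55141 gene IDs were found.

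limma 3.58.1 (R 4.3.3, a moderated linear model with the variance trend on and two-sided p-values) was run on log2(normalized count + 1) with no covariate, and checked on simulated data. Alternatives were pseudocounts of 0.1 and 10, other filters and scalings, a replicate block, leaving out each muscle, and edgeR 4.0.16 and DESeq2 1.42.0 on recovered reads. Exact tests used scipy 1.17.1. All 10 Notch genes were described, and other pathway genes were named if past both thresholds or of the smallest adjusted p in their sub-list, except where stated. Some genes of the pathway are not reported here. The members and lists were chosen with earlier results of these data known.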

Additional observations from a re-analysis of the deposited data

Results flagged for a closer look

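In each group of 4 muscles, a value was singled out where its gap to the nearest of the others was too large a part of the group's range by Dixon's 95% criterion. This was met in 4 of 58 sets of values, where chance gives about 2.9 (1 in 20). *Notch1* was highest in WT muscle 4, at 8.94 on the log2(normalized count + 1) scale against 8.68 to 8.72 in the other WT muscles. The *Notch2* share of the receptor level was lowest in WT muscle 1, at 18.6% against 22.0% to 22.4%. The T cell marker sum was lowest in WT muscle 1, at 1.72 against 2.06 to 2.11 on the same log2 scale, from counts close to 0. The muscle fiber marker sum was lowest in mdx5cv muscle 4, at 19.29 against 19.83 to 19.90. Without that muscle the *Notch2* log2 fold change was 0.85.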

How the results depend on the processing

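Under 19 alternatives *Notch2* rose in every one. Pathway genes that rose ranged from 14 (without mdx5cv muscle 4) to 27 (equal totals), and 10 of the 25 pathway genes called lost the call in at least 1 alternative. Without mdx5cv muscle 4, 17.7% of all genes rose, and at equal totals 39.8%. Centering gave 16 higher and 9 lower, where 17.7% and 25.4% of all genes were. A fit with no variance trend gave 17 and 5, where 19.8% and 18.0% of all genes were. The number of the 10 genes past a log2 fold change of 1 was 1, and became 0 with a pseudocount of 10, with TMM factors and with centering on the median, and ranged from 0 to 1 when single muscles were left out (0 without WT muscle 1 or mdx5cv muscle 4). With equal totals 4 of the 10 rose (*Notch1* 0.47, *Notch2* 1.37, *Jag2* 0.55 and *Heyl* 0.66), where 39.8% of all genes rose. Of the other pathway genes 1 fell, where 6.0% of all genes did. With centering 1 of the 10 fell (*Hes1*), where 25.4% of all genes did. Leaving out muscles gave 0 to 1 (1 without WT muscle 2, where 18.8% of all genes fell). Pathway genes that fell ranged from 4 to 7 when muscles were left out (4 without WT muscle 3 or mdx5cv muscle 4). Of all genes 16.4% fell without WT muscle 3 and 16.8% without mdx5cv muscle 4. Signs turned, without a call, at equal totals for *Notch3* (0.29), *Notch4* (0.27), *Dll4* (0.071) and *Hey1* (0.12), and with centering for *Jag1* (-0.062). They also turned without single muscles for *Notch3* (-0.17 to 0.010, and 0.0058 without WT muscle 4), *Notch4* (-0.19 to 0.0049) and *Jag1* (-0.037 to 0.13). The cause was not tested. With the replicate number as a block, 1 of the 10 rose and 0 fell, with *Notch2* at 1.01 (adjusted p = 8.36e-05), and 18 pathway genes rose and 6 fell. Same-numbered muscles deviated together with correlations of 0.031 to 0.146 across genes and 5 of 8 muscles correlated best with their own number. These values do not settle whether the numbers are pairs. The main fit did not take them as pairs, and the block fit gives the counts if they are. edgeR called 5550 genes of 13677 and DESeq2 5910 of 19094, against 5597 with limma. With 4 muscles a group no exact test could go below 0.0286. Reads were fewest for *Hey1* of the 10, at 23 to 46 per library.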
